A study of Homo sapiens with 6 samples.

Results

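The genes described here encode the actin cytoskeleton and its contractile machinery, measured in AGS (a cell line established from human stomach carcinoma) with and without celecoxib, an inhibitor of cyclooxygenase-2. Of 39 listed genes, 37 were measured among the 18417 genes of the series, and the levels of TPM3 and FLNA were not analysed here. Members were chosen by gene symbol from a list of actins, myosins, tropomyosins and their partners, and a gene with several transcript clusters (probe sets that stand for 1 transcript region) was represented by the one with the highest mean over all 6 arrays. That mean is the measured value the choice used, and it mattered for TPM4 alone, which had a second cluster. The treated group held 3 arrays of cells kept for 24 h with 20 µM celecoxib, which was dissolved in DMSO, and the control group held 3 arrays of cells labelled as given none. All cells had grown for 48 h after seeding, and 250 ng of total RNA was used for labelling. The labels do not say if DMSO alone was added to the controls. The labels call the arrays biological replicates, but they also describe pooling of RNA, so the p-values measure only how far these samples spread, and that spread may be technical. Values are log2 signals, and differences are celecoxib minus control on that scale. A gene is called changed at an adjusted p of 0.05 or less, from limma's moderated test with Benjamini-Hochberg adjustment over all 18417 genes.

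Actin filaments are built from actin monomers and turn over through factors such as cofilin and profilin. Non-muscle myosin II, made of heavy chains, essential light chains and regulatory light chains, pulls on these filaments, while tropomyosins, calponins, caldesmon and transgelins line the filament and alpha-actinins crosslink it. At adhesion sites, talin, kindlin, vinculin and LIM proteins such as zyxin tie the filaments to integrins. Many of these genes are known targets of the transcription factor SRF, which binds a DNA element called the CArG box and is held in check, through its cofactor MRTF, by free actin monomers.

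The promoters of these genes are shown first, because the CArG box is the sequence feature that links many of them to SRF. A CArG box was searched as CC, then 6 bases that are each A or T, then GG, a pattern that reads the same on both strands. RefSeq promoters (build GRCh38.p14, 250 bases before to 50 after each listed start) matched 36 of the 39 genes with 68 starts. A box was found at 12 of these 68 starts (17.6%), against 454 of 35116 starts of all listed genes (1.29%). Since many members are known SRF targets, this share describes the list and is no test. The 12 starts belonged to 10 genes and held 13 distinct boxes. The genes were ACTG1, ACTG2, MYLK, TPM4, CNN2, ACTN1, FHL2, LPP, SRF and FLNA, whose level was not analysed. Shown are the 7 genes whose celecoxib values all lay below the controls (7.95% of all genes) and MYLK, where the groups overlapped. They were picked by these values, and LPP, whose groups also overlapped, is left out. The lines for these 8 genes follow. Each is written 5′ to 3′ on the strand of the gene with up to 30 bases on either side of the box, ends before the start of the transcript, and has the box in capitals.
ACTG2, chr2:73892868-73892974, plus strand: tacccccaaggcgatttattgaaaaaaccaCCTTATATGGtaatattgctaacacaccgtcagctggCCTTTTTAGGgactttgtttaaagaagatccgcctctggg
TPM4, chr19:16067335-16067404, plus strand: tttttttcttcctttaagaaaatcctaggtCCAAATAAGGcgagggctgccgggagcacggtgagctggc
CNN2, chr19:1026489-1026558, plus strand: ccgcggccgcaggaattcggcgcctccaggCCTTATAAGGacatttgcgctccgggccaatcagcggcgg
ACTN1, chr14:68977698-68977767, minus strand: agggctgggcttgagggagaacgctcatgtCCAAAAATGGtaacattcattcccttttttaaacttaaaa
SRF, chr6:43171209-43171268, plus strand: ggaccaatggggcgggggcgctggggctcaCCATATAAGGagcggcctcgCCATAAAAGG
FHL2, chr2:105438575-105438644, minus strand: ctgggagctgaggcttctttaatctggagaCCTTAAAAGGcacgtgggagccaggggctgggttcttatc
FHL2, chr2:105399071-105399140, minus strand: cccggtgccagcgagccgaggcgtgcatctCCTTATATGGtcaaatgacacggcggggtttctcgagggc
ACTG1, chr17:81512854-81512923, minus strand: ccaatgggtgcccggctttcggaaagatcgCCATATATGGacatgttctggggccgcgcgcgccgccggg
MYLK, chr3:123620603-123620672, minus strand: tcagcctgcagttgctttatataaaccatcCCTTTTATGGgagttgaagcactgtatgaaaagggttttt

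ACTG2 held a pair of boxes, at -110 to -101 and -73 to -64 from its start, and SRF held a pair at -30 to -21 and -10 to -1. The 2 FHL2 lines belong to different starts of that gene. The 9 measured genes with a box had a median log2 difference (celecoxib minus control) of -0.39, and all 9 were negative, from -0.47 in TPM4 to -0.04 in MYLK. None of the 9 passed the threshold (limma, 5 lower at an unadjusted p under 0.05, as were 4.44% of all genes). The 25 members with listed promoters and no box had a median of -0.17. Of them 23 were negative, against 52.1% of all genes, and 11 had an unadjusted p under 0.05 by limma. Groups did not overlap, with celecoxib lower, in 7 of the 9 genes with a box and 11 of these 25 (7.95% of all genes). TAGLN, MYL9 and ACTB were outside the promoter search, so 2 of the 3 genes that passed the threshold are in neither set, and the third, CSRP1, had no box. The median of those 3 unsearched genes was -0.66. Among all 242 measured genes with a box the median was -0.04, and 148 were negative. That no box was found says only that these letters are not in the window. The TEAD motif GGAATG, or CATTCC on the other strand, can overlap a CArG box where the box ends in GG. It was found at 16 of the 68 member starts (23.5%) and at 4928 of all 35116 (14%).

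Members were lower with celecoxib in 35 of 37 cases, against 52.1% of all genes, and their median log2 difference was -0.19, against -0.01 over all 18417 genes. In 21 of the 37 members, every celecoxib array lay below every control array, which was so for 7.95% of all genes. In no member did every celecoxib array lie above the controls, which was so for 11.1% of all genes. The fit of limma over all genes placed 3 members, TAGLN, MYL9 and CSRP1, at or under an adjusted p of 0.05, all lower, where 0.0652% of all genes were lower and past it and 0.076% higher, 0.141% together. An unadjusted p under 0.05 by limma was reached by 19 members, all lower, against 4.44% of all genes. A difference of -0.25 or below was seen in 15 members and in 3.74% of all genes. Members were mostly bright on the array, 31 of 37 above 6.785, the median of all clusters. Among the 10874 genes above that level, 48.0% were lower and 8.21% had celecoxib arrays all below the controls, against 29 and 20 of the 31 members. The list was drawn up with earlier results known, so these shares describe it and are no test. In bulk RNA, fewer cells of a type and less RNA per cell cannot be told apart.

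**Figure D1:**
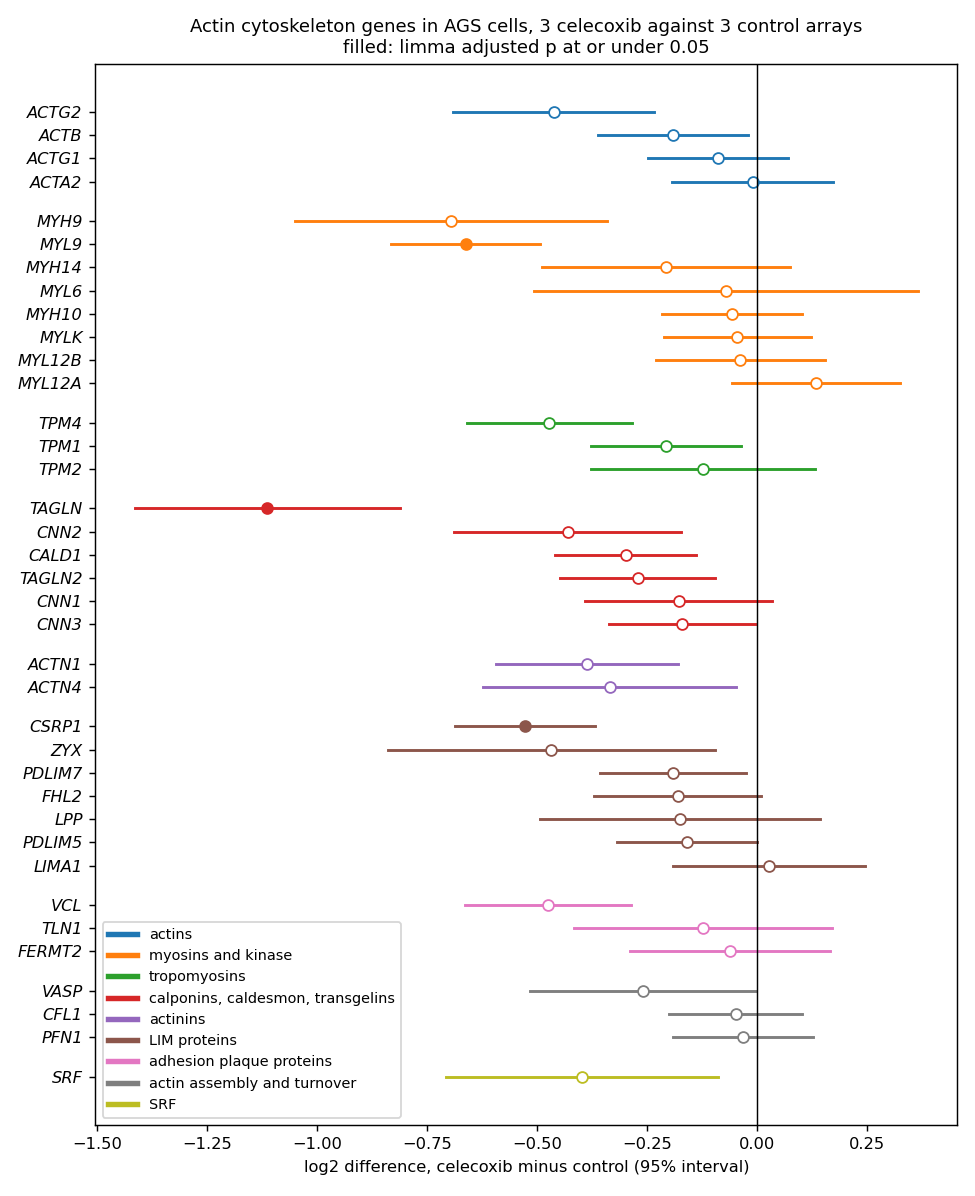
Log2 difference (celecoxib minus control, horizontal axis) of the 37 measured members with 95% intervals from limma, grouped by role, n = 3 arrays per group. Filled points are TAGLN, MYL9 and CSRP1, the 3 members at or under an adjusted p of 0.05; 35 of the 37 points lie left of 0, and MYL12A and LIMA1 lie right of it.

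**Figure D2:**
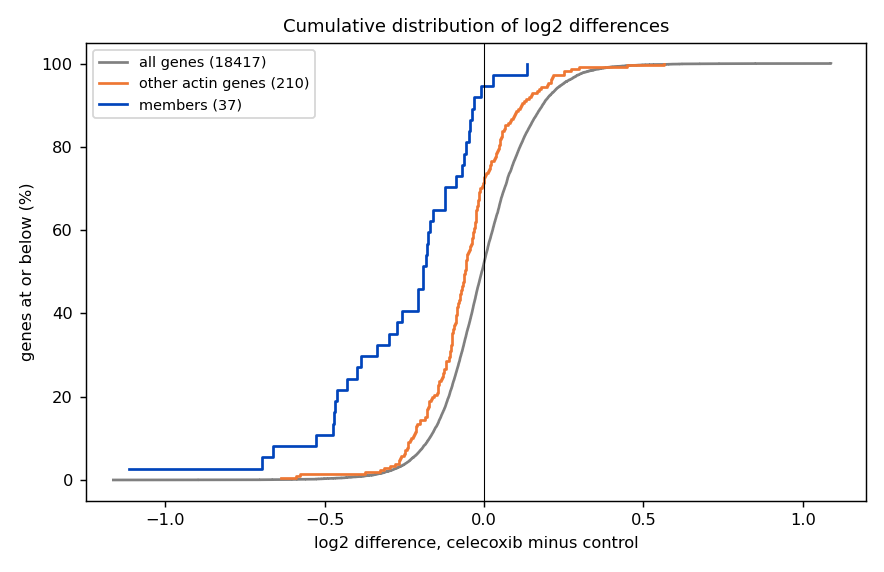
Cumulative share of genes (vertical axis, percent) at or below a log2 difference (horizontal axis) for the 37 members, 210 measured genes of the other actin lists and all 18417 genes. The curve of the members lies to the left, with a median of -0.19 against -0.06 for the other actin genes and -0.01 for all genes.

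Markers of cell types and the level of small RNAs on each array were also looked at. All 10 epithelial markers, among them EPCAM, KRT8 and KRT18, lay above the median of all clusters on average, and their summed level (log2 of the sum) was 14.37 to 14.40 in the controls and 14.28 to 14.33 with celecoxib. Levels of different probes, and sums over lists of different length, cannot be compared, so each sum is set only against the same list in the other group. Of 7 smooth muscle markers 1 was above that median, with a summed level of 8.64 to 8.78 in the controls and 8.61 to 8.86 with celecoxib. Fibroblast markers had 2 of 8 above it (9.51 to 9.57 and 9.50 to 9.54), pericyte markers 2 of 4 (8.68 to 8.81 and 8.69 to 8.81), endothelial markers 0 of 5 (7.82 to 7.85 and 7.79 to 7.91) and leukocyte markers 1 of 4 (8.65 to 8.83 and 8.63 to 8.79). Array values have no zero, so absence cannot be read from them. These ranges overlapped between the groups for every list but the epithelial one. The array celecoxib 1 stood apart from the rest, with a median of 7.68 over 207 small nuclear and nucleolar RNA genes. The other celecoxib arrays had 7.27 each, and the controls had 7.14, 7.01 and 7.14.

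The strongest change among the filament-lining proteins was in TAGLN. TAGLN encodes transgelin, an actin-binding protein abundant in smooth muscle. Its log2 values were 8.37, 8.43 and 8.31 in controls 1 to 3 and 7.51, 7.31 and 6.96 in celecoxib arrays 1 to 3. The celecoxib arrays lay well below the controls, and they were more spread out (SD 0.28 against 0.06, n = 3 each). TAGLN fell by 1.11 ± 0.13 log2 units (SE, 3 arrays per group), which is 2.16-fold lower with an interval from 1.76 to 2.67 (limma adjusted p = 0.0296). TAGLN2, a relative expressed outside muscle, differed by -0.27 ± 0.08, from 10.83, 10.86 and 10.94 to 10.69, 10.63 and 10.50, with no overlap (adjusted p = 0.296). The difference of TAGLN was more negative than that of TAGLN2 by 0.84, and on each celecoxib array the TAGLN value had dropped further below its control mean than the TAGLN2 value had.

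Calponins and caldesmon, which bind actin and restrain myosin, differed by less. CNN2, the calponin of non-muscle cells, was at 10.66, 10.73 and 10.52 in the controls and 9.99, 10.40 and 10.23 with celecoxib, a difference of -0.43 ± 0.11 (limma adjusted p = 0.273). Its lowest value was that of celecoxib 1. CALD1, caldesmon, was at 9.69, 9.77 and 9.65 against 9.36, 9.45 and 9.41, a difference of -0.30 ± 0.07 (adjusted p = 0.216). In CALD1 the spread within each group was small (SD 0.06 and 0.04) beside the distance between them. CNN3 differed by -0.17, without overlap, and CNN1, the smooth muscle calponin, by -0.18, with overlap. CNN1 had a mean of 6.54 over the 6 arrays, below the median of all clusters (6.785). In all, 6 of 6 members of this group were lower, 5 without overlap (7.95% of all genes), with a median of -0.29, and 1 passed the threshold (0.141% of all genes).

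Non-muscle myosin II changed in 1 of its measured chains. MYL9, a regulatory light chain whose phosphorylation switches the motor on, was at 10.19, 10.12 and 10.00 in the controls and 9.40, 9.45 and 9.47 with celecoxib. The groups were tight and far apart. MYL9 fell by 0.66 ± 0.07 log2 units (SE, 3 arrays per group), or 1.58-fold with an interval from 1.41 to 1.78 (limma adjusted p = 0.0296). MYL12A and MYL12B, which encode closely related regulatory light chains, did not pass the threshold. MYL12A differed by 0.13, with a 95% interval from -0.06 to 0.32, and MYL12B by -0.04, from -0.23 to 0.15. Both intervals lie above that of MYL9, which runs from -0.83 to -0.49. A cluster annotated to both MYL12A and MYL12B, which the choice of clusters leaves out, differed by 0.05 ± 0.09. Probes of such near-identical genes can share signal, so the values of MYL12A and MYL12B carry that uncertainty.

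MYH9, the heavy chain of non-muscle myosin IIA, had the largest difference in the group and also a wide spread. It was at 9.77, 9.98 and 9.47 in the controls and 8.79, 9.27 and 9.08 with celecoxib, without overlap, with a gap of 0.20 between the lowest control and the highest celecoxib array. The difference was -0.70 ± 0.15 (limma adjusted p = 0.197), and SDs within the groups were 0.26 and 0.24. MYH14, another heavy chain, differed by -0.21 with overlap, and MYH10 by -0.06. The essential light chain MYL6 differed by -0.07 ± 0.19 and had the widest interval of all members, from -0.51 to 0.37. MYLK, the kinase that phosphorylates the regulatory light chains, differed by -0.04, with an interval from -0.21 to 0.12. MYLK and MYH10 had means over the 6 arrays of 6.08 and 5.65, below 6.785, the median of all clusters. The median of the 8 genes was -0.06, and 7 were lower.

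Tropomyosins were lower in all 3 measured genes. TPM4, a tropomyosin of non-muscle cells, was at 10.66, 10.63 and 10.43 in the controls and 10.06, 10.11 and 10.13 with celecoxib. The celecoxib values were nearly equal (SD 0.04) and lay below all controls, with a difference of -0.47 ± 0.08 (limma adjusted p = 0.0937). The second, dimmer cluster of TPM4 was at 9.75, 9.73 and 9.66 against 9.48, 9.33 and 9.50, a smaller difference of -0.28, also without overlap. TPM1 differed by -0.21, without overlap, and TPM2 by -0.12, with overlap. TPM2 had a mean of 5.98 over the 6 arrays, below the median of all clusters (6.785). The median of the group was -0.21.

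Among the actins, ACTG2 differed most. ACTG2 encodes the gamma actin of enteric smooth muscle, and its 3 control values were 6.93, 6.93 and 6.92, against 6.54, 6.61 and 6.25 with celecoxib. All celecoxib arrays lay below the controls, with a difference of -0.46 ± 0.10 (limma adjusted p = 0.185). The mean of ACTG2 over the 6 arrays, 6.70, was below the median of all clusters (6.785). ACTB, the beta actin of all cells, was at 13.43, 13.46 and 13.29 against 13.16, 13.24 and 13.20, a difference of -0.19 ± 0.07 (adjusted p = 0.404). ACTG1, the other cytoplasmic actin, differed by -0.09, with a gap of 0.02 between the groups. ACTA2, the alpha actin of vascular smooth muscle, differed by -0.01, with an interval from -0.19 to 0.17. Actin genes are highly alike in their coding parts, so probes may share signal between them.

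**Figure D3:**
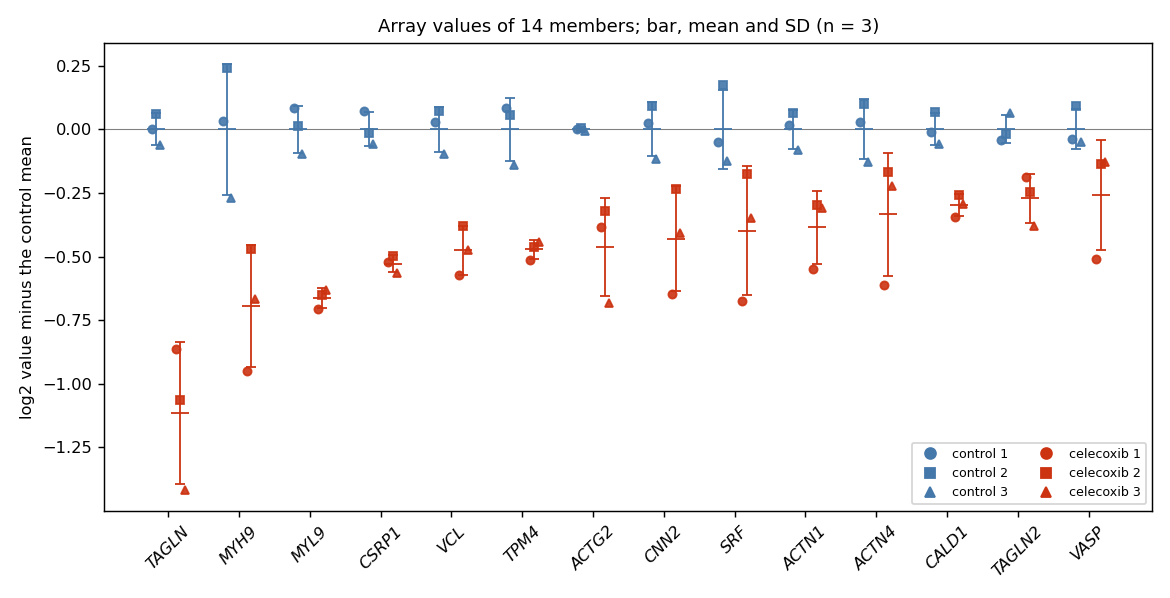
Log2 value of each array minus the control mean of that gene (vertical axis) for 14 members (horizontal axis, ordered by difference), with mean and SD of 3 arrays per group. The celecoxib arrays lie below the controls in all 14 genes, from TAGLN with a mean difference of -1.11 to VASP with -0.26. The genes shown are members without overlap that differ by at least 0.25, so this separation follows from the choice. Celecoxib 1 is far below celecoxib 2 and 3 in SRF, ACTN4 and VASP.

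LIM proteins, which carry zinc-binding LIM domains and sit on stress fibres, were lower in 6 of 7 genes, with a median of -0.18. CSRP1, a LIM protein that binds alpha-actinin and zyxin, was at 10.71, 10.62 and 10.58 in the controls and 10.11, 10.14 and 10.07 with celecoxib. Both groups were tight (SD 0.07 and 0.03) and did not overlap. CSRP1 fell by 0.53 ± 0.07 log2 units (SE, 3 arrays per group), or 1.44-fold with an interval from 1.29 to 1.61 (limma adjusted p = 0.0414). ZYX, zyxin, a sensor of tension on filaments, was at 9.34, 9.56 and 9.07 against 8.55, 9.10 and 8.92. The groups overlapped, since celecoxib 2 lay above control 3, and the difference of -0.47 ± 0.16 did not pass (adjusted p = 0.363). FHL2, PDLIM5 and PDLIM7 differed by -0.18, -0.16 and -0.19, each without overlap. LPP, a relative of zyxin, differed by -0.17 with overlap, and LIMA1 (EPLIN, which stabilises filaments) by 0.03, with an interval from -0.19 to 0.25.

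Alpha-actinins, the crosslinkers of stress fibres, were lower in both measured genes. ACTN1 was at 11.69, 11.74 and 11.59 in the controls and 11.13, 11.38 and 11.37 with celecoxib, a difference of -0.39 ± 0.09 (limma adjusted p = 0.216). ACTN4 was at 12.25, 12.32 and 12.09 against 11.61, 12.05 and 11.99, a difference of -0.33 ± 0.13 (adjusted p = 0.385). Neither gene had overlapping groups, but in ACTN4 the gap was 0.04 and celecoxib 1 lay far below the other arrays.

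Of the proteins of adhesion plaques, VCL, vinculin, which links talin to actin under tension, differed most. It was at 9.93, 9.97 and 9.80 in the controls and 9.33, 9.52 and 9.43 with celecoxib. The groups were well apart, with a difference of -0.48 ± 0.08 (limma adjusted p = 0.0937). TLN1, talin, differed by -0.12 with an interval from -0.42 to 0.17, and FERMT2, a kindlin, by -0.06 with an interval from -0.29 to 0.17. FERMT2 was dim, with means of 4.63 and 4.57, both below 5.629, the level under which the dimmest 20% of genes lay.

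Factors of actin assembly and turnover were close to 0 apart from VASP. CFL1 (cofilin, which severs filaments) differed by -0.05, with an interval from -0.20 to 0.10, and PFN1 (profilin, which delivers monomers) by -0.03, from -0.19 to 0.13. VASP, which extends filaments at their growing ends, was at 8.59, 8.72 and 8.58 in the controls and 8.12, 8.49 and 8.50 with celecoxib. The celecoxib values lay below the controls with a gap of 0.08, and celecoxib 1 was well below celecoxib 2 and 3. The difference was -0.26 ± 0.11 (limma adjusted p = 0.44).

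SRF itself, the factor that binds CArG boxes, was at 8.75, 8.98 and 8.68 in the controls and 8.13, 8.63 and 8.45 with celecoxib. The groups did not overlap, with a gap of 0.05, and the difference was -0.40 ± 0.13 (limma adjusted p = 0.357). A list of 10 symbols held its cofactors, some under both an older and a newer name, the ternary complex factors, SCAI and ARID5B. Of these symbols 7 were measured, 5 higher and 2 lower, with a median of 0.04. None passed the threshold (limma, smallest difference -0.11, largest 0.10).

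**Figure D4:**
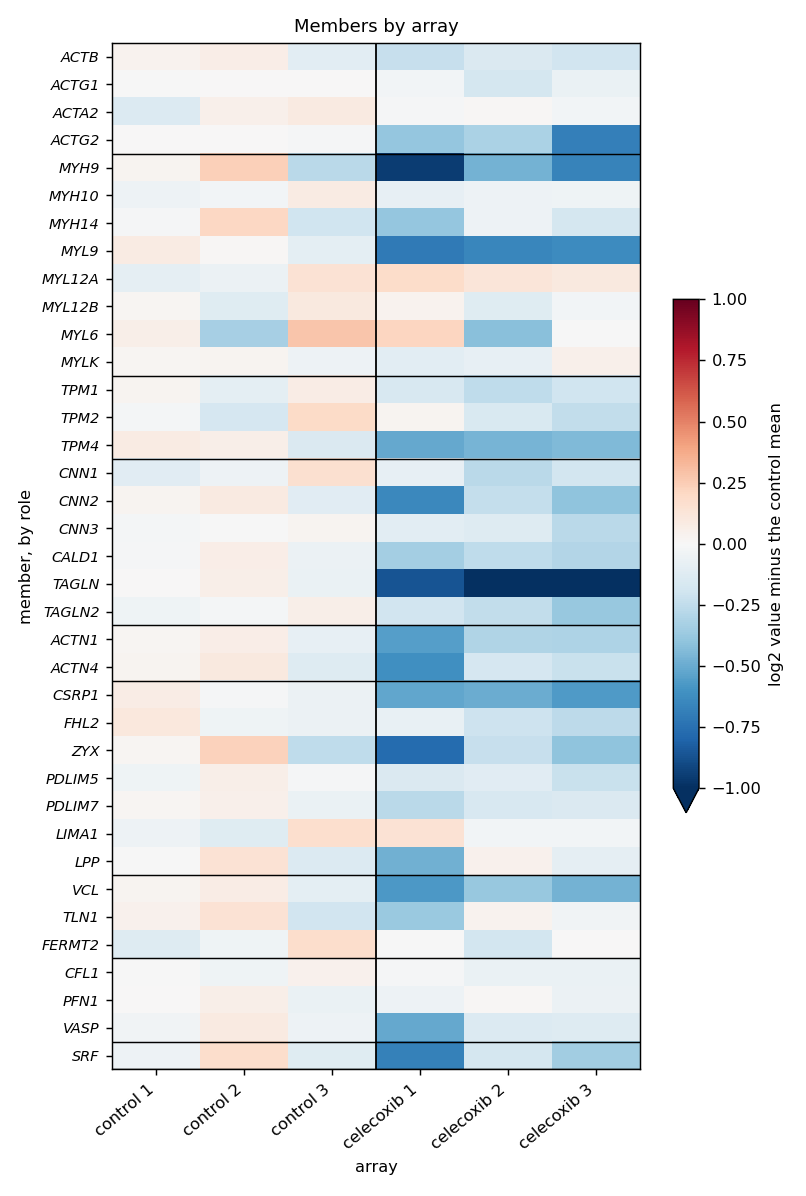
Log2 value minus the control mean of each gene (colour, from -1 in blue to 1 in red) for the 37 members (rows, by role) on the 6 arrays (columns). The celecoxib columns are mostly blue, with means over the members of -0.29, -0.22 and -0.26 for arrays 1 to 3, and TAGLN reaches below -1 on celecoxib 2 and 3.

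Members differed in how the arrays were ordered. The mean over the 37 members, relative to the control mean, was 0.00, 0.03 and -0.02 on the control arrays and -0.29, -0.22 and -0.26 on the celecoxib arrays, so all 3 treated arrays lay below all controls. Celecoxib 1 was the lowest of the 6 arrays in 18 members, celecoxib 3 in 9 and celecoxib 2 in 6, against 22.5%, 12.9% and 20.1% of all genes. Control 2 was the highest in 19 members and in 18.2% of all genes. The 18 members lowest on celecoxib 1 included MYH9, ZYX, SRF, VASP, TLN1, LPP, both actinins and VCL. The 9 lowest on celecoxib 3 included TAGLN, TAGLN2, ACTG2, CSRP1 and FHL2.

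Since celecoxib 1 stood apart, the counts were repeated without it. Again 35 of 37 members were lower (51.9% of all genes), and 23 had both remaining celecoxib arrays below all controls (13.6% of all genes). The 21 members without overlap on all 6 arrays had to stay lower and without overlap once an array was removed. A difference of -0.25 or below was seen in 13 members (3.3% of all genes). The median was -0.20. No member passed the threshold then, although 15 had an unadjusted p under 0.05 by limma, and the smallest adjusted p was 0.0575, for TAGLN. The difference of TAGLN was -1.24 without celecoxib 1, that of MYL9 -0.64 and that of CSRP1 -0.53. ACTN4 moved from -0.33 to -0.20, VASP from -0.26 to -0.13 and SRF from -0.40 to -0.26. Leaving out any other array also left 0 members past the threshold, with 12 to 18 at an unadjusted p under 0.05 by limma. The 3 called genes then had limma adjusted p-values between 0.0714 and 0.354. How many of all genes had an unadjusted p under 0.05 by limma in the fits with an array left out was not counted.

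Small RNA level also moved with the groups, being higher on each celecoxib array than on the controls. A fit with this level as a covariate, chosen after the data were seen, gave 29 of 37 members lower and a median of -0.15. In the same fit 104 of the 210 measured genes of the other actin lists were lower. The share of all genes was not counted there, so these counts describe the listed genes only. TAGLN stood at -1.35 in that fit, MYL9 at -0.61, ACTG2 at -0.54, CSRP1 at -0.54, TPM4 at -0.41, TAGLN2 at -0.36, VCL at -0.35 and CALD1 at -0.23. MYH9 moved from -0.70 to -0.36, CNN2 from -0.43 to -0.18, ACTN1 from -0.39 to -0.20, SRF from -0.40 to -0.06, ACTN4 from -0.33 to -0.02 and VASP from -0.26 to 0.03. None of the 37 passed the threshold in it (12 at an unadjusted p under 0.05 by limma, smallest adjusted p = 0.218). The part of the small RNA level in the differences was not tested.

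**Figure D5:**
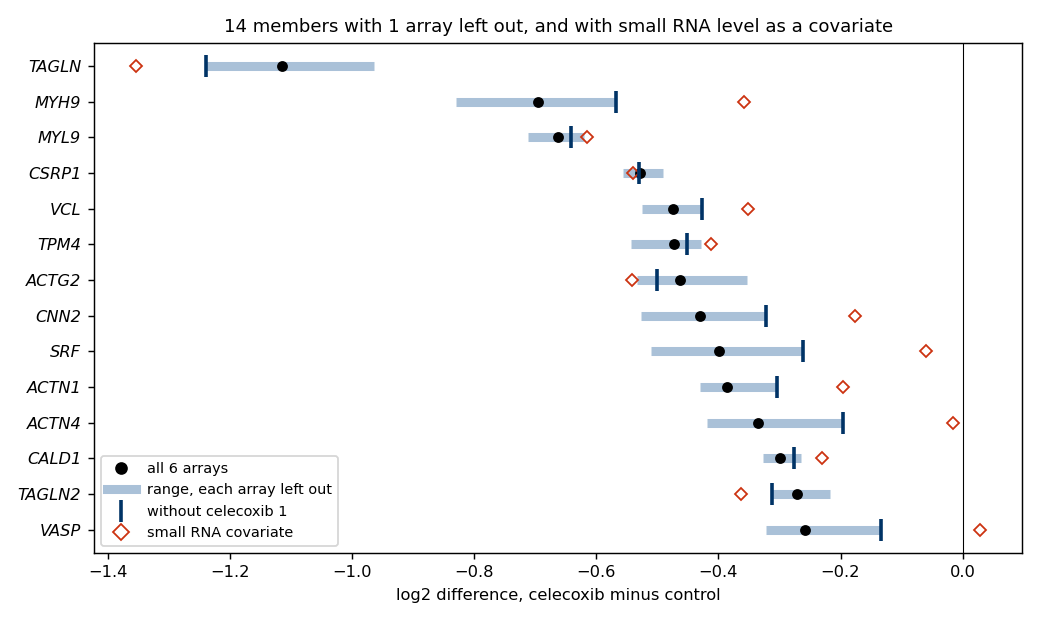
Log2 difference (horizontal axis) of 14 members (rows) with all 6 arrays, over the fits that leave out 1 array, without celecoxib 1, and with the small RNA level as a covariate. TAGLN, MYL9 and CSRP1 stay below -0.49 in each, while SRF, ACTN4 and VASP lie between -0.06 and 0.03 with the covariate.

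Other genes of the actin system were counted from 9 lists by role, with 210 of 234 listed symbols measured. Of these, 150 were lower and 60 higher, with a median of -0.06, and 26 had celecoxib arrays all below the controls (7.95% of all genes) and 13 all above (11.1% of all genes). A single gene passed the threshold (0.141% of all genes), TTN, which encodes the giant sarcomere protein titin. TTN rose, from 6.91, 6.92 and 7.05 in the controls to 7.56, 7.53 and 7.48 with celecoxib, a difference of 0.56 ± 0.07 (SE, n = 3 per group, limma adjusted p = 0.0369). With any 1 array left out, no gene of these lists passed (limma gave 20 to 35 an unadjusted p under 0.05, and the smallest adjusted p was 0.0979). With the small RNA covariate 104 of the 210 were lower and none passed (36 had an unadjusted p under 0.05, and the smallest adjusted p was 0.279). The list that holds TTN, of sarcomere proteins of striated muscle, was otherwise mostly lower. Of its 30 measured genes 23 were lower (52.1% of all genes), with a median of -0.08. In this list 5 lay below the controls without overlap (7.95% of all genes), and TTN alone lay above them without overlap (11.1%). Only 8 of the 30 were above the median of all clusters.

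Nucleators of filaments were counted in 2 lists. The 17 measured genes of the Arp2/3 and WAVE complexes, which branch filaments, had a median of -0.01, the same as all genes to this precision, with 7 higher. CYFIP2 differed by 0.15 and CYFIP1 by -0.12 in that list, both WAVE subunits. The 13 formins, which grow unbranched filaments, had a median of -0.07, with 9 lower. DIAPH3 differed by -0.29 ± 0.07 and DIAPH2 by 0.25 ± 0.07, without overlap in opposite directions (limma adjusted p = 0.197 and 0.296).

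Severing, capping and monomer-binding genes had a median of -0.05 over 23 genes. EPS8 (a capping and bundling protein) and TWF1 (twinfilin) differed by 0.30 and 0.25, both higher without overlap. The other LIM and plaque proteins had a median of -0.08, with 34 of 43 lower (52.1% of all genes) and 8 below the controls without overlap (7.95% of all genes). AJUBA, a LIM protein of junctions, was at 9.05, 9.15 and 8.89 in the controls and 8.12, 8.69 and 8.52 with celecoxib, a difference of -0.59 ± 0.14 (limma adjusted p = 0.238). BCAR1, a scaffold of focal adhesions, differed by -0.26. Among 20 other crosslinkers the median was -0.08. PALLD (palladin, a partner of alpha-actinin) was at 7.57, 7.69 and 7.29 against 6.71, 7.07 and 6.85, a difference of -0.64 ± 0.13 (adjusted p = 0.138). SYNPO2, also a smooth muscle marker here, was higher without overlap (0.45 ± 0.12, adjusted p = 0.275) and dim, at 5.08 to 5.85. The 24 other myosins had a median of -0.04, with MYO1E at -0.31 and MYO18B at -0.24.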

How the data were processed

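Transcript levels were measured on 6 arrays of the HuGene-1_0-st design, 3 per group, and the groups were taken from the labels. Per the submitters' processing notes, the authors deposited log2 values from RMA, which corrects background, equalises the arrays and summarises probes, run in Affymetrix Expression Console 1.1. The log2 scale was read from the range of the values. The settings of RMA are not stated, and the number of arrays limits the precision. Of 33297 transcript clusters, the 19460 whose platform annotation gives 1 gene symbol were kept (1754 had several and 12083 none), and the brightest stood for each of 18417 genes.

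The 2 groups were compared in limma 3.58.1 (R 4.3.3; lmFit, then eBayes; two-sided) with Benjamini-Hochberg adjustment over all 18417 genes and a threshold of 0.05. Differences are celecoxib minus control with standard errors or 95% intervals from that fit. Members, subgroups and lists were chosen with earlier results of these data known. Values are given for every member past the threshold, for members without overlap that differ by at least 0.25, and for the largest difference in each subgroup. ZYX, ACTB and the second TPM4 cluster were added after their values were seen. Of the other lists, genes past the threshold are named, or else up to 2 with the largest difference among those without overlap; the pattern across arrays was also described after it was seen. One of the 9 other lists enters their totals and is not reported here on its own. Sequences are from RefSeq. The procedure was tested on simulated data. Figures used matplotlib 3.10.9.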

Additional observations from a re-analysis of the deposited data

How the results depend on the processing

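The direction of the 3 called members held in all 17 alternatives, with TAGLN between -1.35 and -0.96, MYL9 between -0.71 and -0.61 and CSRP1 between -0.59 and -0.49. Several alternatives leave these differences as they were, so the direction could not turn in them. They are the mean of a gene's clusters, all clusters together, the cuts on signal, the intensity trend and the replicate block. With an array left out or with array weights the direction could not turn either, since the groups of these 3 genes do not overlap. The count of called members was 3 and did not hold as well. It was 0 when all 33297 clusters were tested together (17 members at an unadjusted p under 0.05 by limma, smallest adjusted p = 0.208), 0 with the replicate number as a block (19, smallest adjusted p = 0.0692), 0 with the small RNA covariate (12) and 0 with each array left out (12 to 18). It was 5 among genes above the median signal and with an intensity trend and robust prior (TPM4 and VCL added), and 7 with array weights (ACTG2 and MYH9 added). The share of all genes called in each alternative was not counted, so these counts describe the members only. The count of other actin genes, 1, became 0 with all clusters together, with the replicate block, with the small RNA covariate and with each array left out, where 25, 33, 36 and 20 to 35 had an unadjusted p under 0.05 by limma. It became 3 with array weights, where 47 had an unadjusted p under 0.05 by limma, against 27 in the main fit. Same-numbered arrays correlated across genes, in their deviations from the group means, at -0.02, 0.49 and 0.01. Arrays with unlike numbers correlated at -0.49 to 0.41. These values do not settle if arrays were paired. The numbers were not taken as pairs because the labels do not say that they are.

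The median of all members, -0.19, ranged from -0.22 to -0.18 with each array left out and was -0.15 with the small RNA covariate. The cuts on signal changed no gene's own difference and only left dim members out of the medians. Among genes above the median signal, 3 actins stood at -0.0885, 6 myosins at -0.14, 2 tropomyosins at -0.34 and 2 plaque proteins at -0.30. The 2 plaque proteins left without the dimmest 20% also stood at -0.30. With quantile normalization repeated, actins stood at -0.18. Myosins stood at -0.0896 under cyclic loess and at -0.0921 with array weights. With the small RNA covariate, myosins stood at -0.10, tropomyosins at -0.33, actinins at -0.11, assembly factors at 0.0054 and SRF at -0.0603, and VASP turned to 0.0288. With each array left out, myosins ranged from -0.101 to -0.0429 and plaque proteins from -0.217 to -0.0832. The cause of the shifts other than those of the cuts on signal was not tested. The count of 10 genes with a CArG box was the same with the 250 bases before the start only.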
